A study of Mus musculus with 2 samples.

Results

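The genes described here are the 4 mouse protease-activated receptors, F2r, F2rl1, F2rl2 and F2rl3, and the polarity gene Pard3. They were taken by symbol from the feature list and are 5 of its 19465 features, and all 5 were read in both libraries. Their level was measured in 2 libraries, labelled KPC-shZEB1 (1 library) and KPC-shV (1 library), each a section of an orthotopic pancreatic tumor that was grown in mice from KPC cells. KPC is a mouse pancreatic cancer line from genetically engineered animals with Pdx-1-Cre, which drives recombination in the pancreas. Its 2 stable forms here carry a short hairpin against Zeb1 (shZEB1) or the control vector (shV), delivered by lentivirus, so that the knockdown applies to the injected cells and not to the stroma of the host. The labels name no drug, whereas the study describes its spatial sections as coming from the gemcitabine-treated tumors of both groups that it also used for single-cell sequencing, and 2 tumors per group are given without saying which of them a library covers.

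Protease-activated receptors are cell surface receptors that a protease switches on by cutting their outer end. The new end folds back as a tethered ligand and starts signaling through G proteins and arrestins. F2r (PAR1) is the main thrombin receptor of fibroblasts and many tumor cells, F2rl1 (PAR2) responds to trypsin and mast cell tryptase and is known in epithelia, F2rl2 (PAR3) is cut by thrombin and serves as a cofactor on mouse platelets, and F2rl3 (PAR4) is the signaling thrombin receptor of platelets. Pard3 shares with them the abbreviation PAR, but it is a partitioning-defective scaffold protein that sets apical-basal polarity and tight junctions with Pard6 and atypical protein kinase C. Databases of ligands and receptors list F2r, F2rl1 and Pard3 as partners of granzyme A (Gzma), a protease of cytotoxic lymphocytes.

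The cutting site defines the receptor family, and its coding sequence is shown for the 4 receptors to set them apart from Pard3. The sequences are from GENCODE M21 on GRCm38, on the strand of each gene, and the capitals mark the bases that encode the first 6 residues of the tethered ligand.
F2r: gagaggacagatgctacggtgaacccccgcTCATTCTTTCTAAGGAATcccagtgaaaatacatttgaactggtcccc
F2rl1: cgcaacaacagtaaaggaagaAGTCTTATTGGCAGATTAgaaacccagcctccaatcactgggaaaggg
F2rl2: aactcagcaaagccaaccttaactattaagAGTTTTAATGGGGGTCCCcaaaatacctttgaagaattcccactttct
F2rl3: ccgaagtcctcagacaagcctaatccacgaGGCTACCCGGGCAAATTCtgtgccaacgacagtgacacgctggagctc

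These stretches lie in exon 2 of 2 of each receptor gene, at chr13:95604855-95604932 on the minus strand (F2r), chr13:95514211-95514279 on the minus strand (F2rl1), chr13:95700530-95700607 on the plus strand (F2rl2) and chr8:72762294-72762371 on the plus strand (F2rl3). The codon just before the capitals encodes arginine in F2r, F2rl1 and F2rl3 and lysine in F2rl2, the residues after which trypsin-type proteases cut. The hexapeptide of each receptor had 0 matches in the other members. Translated from the same annotation, the receptors were 369 to 430 residues long, and their best local alignments with one another covered 308 to 346 residues at 33.1% to 40.4% identity. Pard3 was 1334 residues long, and its best local alignment with any receptor covered 40 to 74 residues. F2rl1, F2r and F2rl2 lie close together on chromosome 13, from 95511732 to 95702739, and F2rl2 lies inside Iqgap2 on the opposite strand. F2rl3 and Pard3 are both on chromosome 8, at 72761880 to 72763874 and at 127063893 to 127612286.

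The assay was Visium CytAssist, in which gene-specific probes are hybridized to the RNA of a section and captured on a grid of barcoded spots. A spot reads a small region with several cells, often of different types, so that fewer cells of a type and less RNA per cell cannot be told apart. In total 140493626 unique molecular identifiers (UMIs) were counted in 2220 spots of the KPC-shZEB1-labelled library and 172059528 in 3552 spots of the KPC-shV-labelled library, with medians of 59957.5 and 52544.5 UMIs per spot. The 2 libraries shared 1718 barcodes, which name positions on the slide design. A level is a gene's UMIs per 1000000 UMIs (CPM), and a ratio between libraries is always given as log2 with KPC-shV as the denominator. With 1 library per condition there was no replicate and no test, and the 95% intervals cover counting error only, because spots of a section are not replicates. Zeb1 itself was at 10.8 CPM in the KPC-shZEB1-labelled library and 12.4 CPM in the KPC-shV-labelled library, a log2 ratio of -0.20 (-0.30 to -0.11). Without the acinar-rich spots, in which more than 20% of UMIs came from pancreatic digestive enzyme genes, Zeb1 was at 15.6 and 12.7 CPM. This is a log2 ratio of 0.29 (0.19 to 0.39), opposite in direction to a knockdown. In spots rich in epithelial markers the ratio was 0.38 (-0.07 to 0.84), an interval that includes 0. A spot can hold host cells, which carry no hairpin, beside the injected cells. The Zeb1 level of whole spots therefore cannot check the knockdown or the labels. These acinar-rich spots were 762 (34.3% of spots) and 255 (7.18%), respectively.

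F2r was by far the most different member between the libraries. Its level was 27.8 CPM (26.9 to 28.7, from 3907 UMIs) in the KPC-shZEB1-labelled library and 129 CPM (from 22229 UMIs) in the KPC-shV-labelled library. This is a log2 ratio of -2.22 (-2.27 to -2.17), or 4.65-fold lower in the first. Of the 15358 genes that reached 100 UMIs in each library, 65 had a lower ratio, while the median gene was at -0.48 because the acinar UMIs enter the total. Leaving out acinar-rich spots brought the median gene to -0.02 and F2r to 43.9 and 134 CPM, a log2 ratio of -1.61 (-1.66 to -1.56), with 75 of 14371 genes lower. The difference lay in most spots and not in a few. Among spots of at least 20000 UMIs outside the acinar-rich ones, the median spot was at 31.6 CPM (1406 spots) against 108 CPM (2669 spots), and the highest at 336 and 777 CPM. F2r had 0 UMIs in 22.0% and 3.03% of these spots.

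Pard3, F2rl1 and F2rl3 differed less than F2r. Without acinar-rich spots their ratios moved toward 0, as those of F2r and of the median gene did. The share of genes with a lower ratio went from 7.47% to 7.46% for Pard3 and from 11.1% to 8.25% for F2rl3. For F2rl1 it went from 10.3% to 17.6%. Pard3 was at 32.4 and 67.4 CPM, a log2 ratio of -1.06 (-1.11 to -1.01), and at -0.55 (-0.61 to -0.50) without acinar-rich spots. F2rl1 was at 20.01 and 39.2 CPM, a log2 ratio of -0.97 (-1.03 to -0.90), and at -0.34 (-0.41 to -0.28) without them. F2rl3 was at 2.01 and 3.88 CPM, a log2 ratio of -0.95 (-1.16 to -0.75), and at -0.53 (-0.75 to -0.31) without them. F2rl2 was at 1.20 and 1.38 CPM, a log2 ratio of -0.20 (-0.50 to 0.09), and turned to 0.33 (0.03 to 0.63) without acinar-rich spots. Its level lay within the range of 11 genes that pancreas and tumor should not express, such as the sperm protein gene Tnp1, which read 0.427 to 1.42 CPM and 0.674 to 1.73 CPM. Over all spots F2rl2 could thus not be told from this background, and F2rl3 stood little above it.

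Counted at a 2-fold limit, 2 of the 5 members (F2r and Pard3) were lower in the KPC-shZEB1-labelled library over all spots, where 9.21% of all genes were. Without acinar-rich spots F2r alone was past the limit, where 2.00% of all genes were lower and 4.83% were higher. No member was at least 2-fold higher in either setting. The plot of the members among all genes shows F2r in the left tail of the distribution and the other 4 inside its body.

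**Figure D1:**
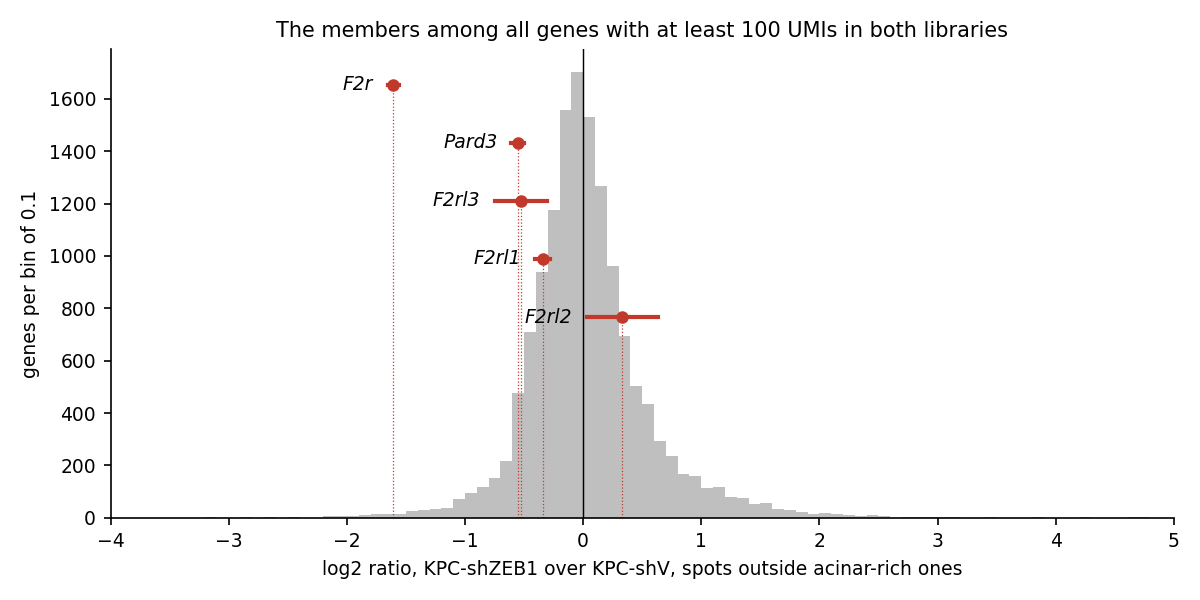
Distribution of the log2 ratio KPC-shZEB1 over KPC-shV (x axis) over 14371 genes outside acinar-rich spots, as genes per bin (y axis, grey bars), with each member as a red point and its 95% counting interval as a red line at a height chosen for display. F2r lies at -1.61 in the left tail, and Pard3, F2rl3, F2rl1 and F2rl2 lie between -0.55 and 0.33.

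**Figure D2:**
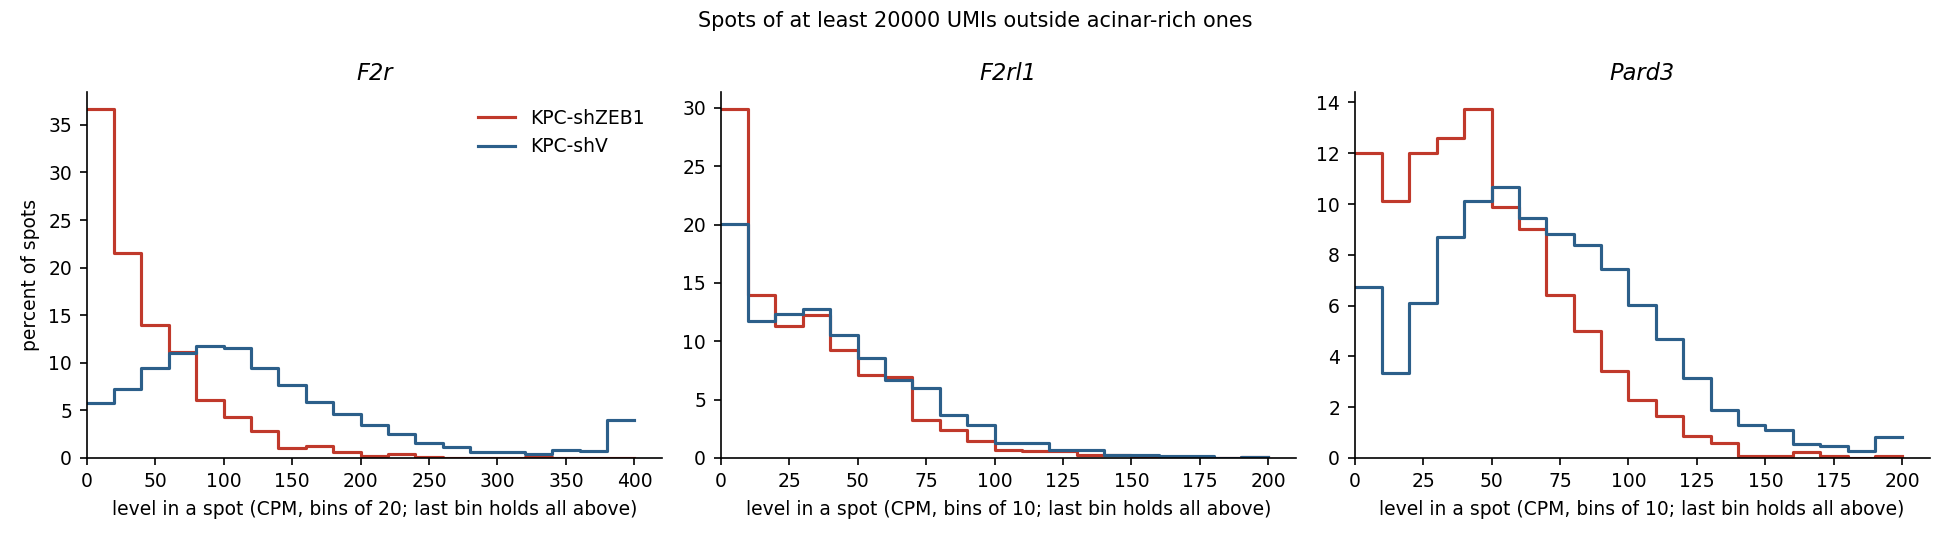
Percent of spots (y axis) by the level of F2r, F2rl1 and Pard3 in the spot (x axis, CPM) for 1406 spots of the KPC-shZEB1-labelled library (red) and 2669 spots of the KPC-shV-labelled library (blue) with at least 20000 UMIs outside acinar-rich spots. The F2r curves are set apart (medians 31.6 and 108 CPM), the Pard3 curves less so (42.5 and 64.5 CPM), and the F2rl1 curves run close together (24.6 and 34.8 CPM).

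The share of spots with a UMI was compared after thinning each spot to 5000 UMIs. F2r was then found in 19.4% (17.4% to 21.5%) of 1454 spots outside the acinar-rich ones in the KPC-shZEB1-labelled library and in 42.5% (40.7% to 44.2%) of 3123 spots in the KPC-shV-labelled library. Unthinned, these shares were 76.8% and 88.3%. Pard3 was found in 19.9% and 26.8% of the thinned spots (86.2% and 81.6% unthinned) and F2rl1 in 14.0% (12.2% to 15.9%) and 15.2% (14.0% to 16.5%), whose intervals overlap (68.1% and 67.5% unthinned). F2rl2 was found in 1.17% and 0.801% of the thinned spots and F2rl3 in 1.38% and 2.43%. In acinar-rich spots, the tissue with the least F2r, the thinned share of F2r was 1.71% of 762 spots and 9.84% of 244 spots. These spots were unlike in acinar content. More than 60% of UMIs were acinar in 460 spots of the KPC-shZEB1-labelled library and in 0 of the KPC-shV-labelled library.

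To place the members in the tissue, spots were scored by markers of epithelial cells, fibroblasts, endothelial cells and macrophages, and the 10% of spots with the highest score outside acinar-rich ones were called rich in that marker. Each list was higher in its own spots, as the choice of spots fixes in advance, every marker by 1.48-fold or more. These spots are not pure. Of the fibroblast-marker-rich spots, 32.9% and 60.4% were also macrophage-marker-rich, and they were shallow in the KPC-shV-labelled library (median 15522.5 UMIs against 37827.5). None of them was epithelial-marker-rich. Levels are compared below for one gene at a time, since probes of different genes are not read with equal efficiency.

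**Figure D3:**
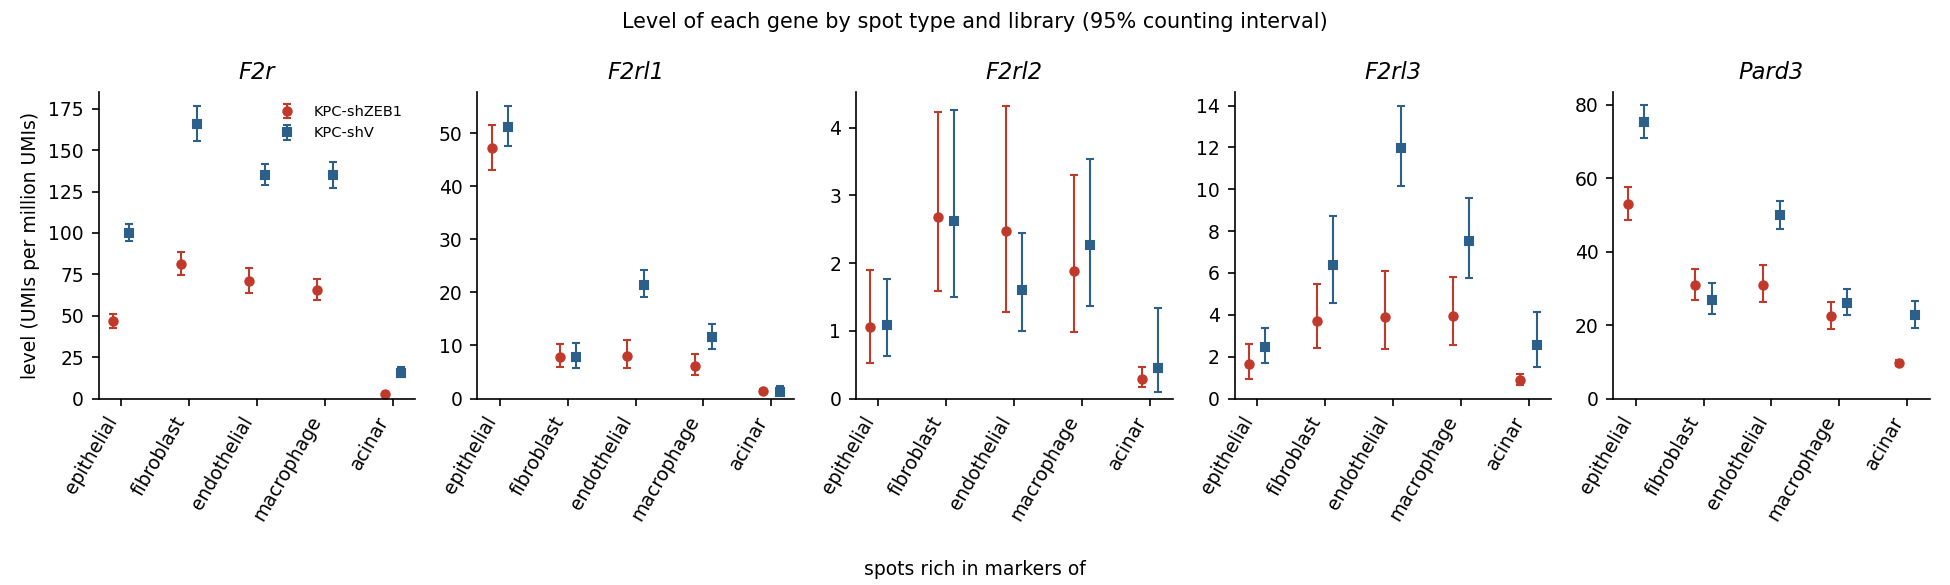
Level of each member (y axis, CPM, each gene on its own axis from 0) in spots rich in markers of 5 cell types (x axis) in the KPC-shZEB1-labelled library (red circles) and KPC-shV (blue squares), with 95% counting intervals. F2r is lower in the KPC-shZEB1-labelled library in each type, F2rl1 is highest in epithelial-marker-rich spots in both, and F2rl3 stands out in the endothelial-marker-rich spots of the KPC-shV-labelled library.

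F2r was read in all of the non-acinar regions and was lower in the KPC-shZEB1-labelled library in each of them. It was at 81.5 and 166 CPM in fibroblast-marker-rich spots (log2 ratio -1.03, -1.18 to -0.87) and at 70.8 and 135 CPM in endothelial-marker-rich spots (-0.93, -1.10 to -0.76). Macrophage-marker-rich spots held 65.5 and 135 CPM (-1.04, -1.21 to -0.88), and epithelial-marker-rich spots held 47.0 and 99.9 CPM (-1.09, -1.24 to -0.94). The ratio thus stayed near 2-fold in all 4 types, below the 3.04-fold over all spots outside acinar-rich ones. In the KPC-shZEB1-labelled library the levels fell in the order fibroblast, endothelial, macrophage and epithelial, and the intervals of neighbours in this order overlap except those of macrophage- and epithelial-marker-rich spots. In the KPC-shV-labelled library the fibroblast-marker-rich spots were highest, the endothelial- and macrophage-marker-rich spots had nearly the same level, and the epithelial-marker-rich spots were lowest.

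Within a library, F2r in fibroblast-marker-rich spots was higher than in the other spots by a log2 ratio of 1.0 (0.87 to 1.13; 81.5 against 40.7 CPM) in the KPC-shZEB1-labelled library. The same ratio was 0.32 (0.23 to 0.41; 166 against 132 CPM) in the KPC-shV-labelled library. Under other settings it ran from 0.77 to 1.22 in the KPC-shZEB1-labelled library. In the KPC-shV-labelled library it ran from 0.10 (spots of at least 20000 UMIs) to 0.62 (top 5% of spots). Along 10 classes of the fibroblast score, cut at the same values in both libraries, F2r was at 31.8 to 55.6 CPM in the first 9 classes and 81.5 CPM in the last in the KPC-shZEB1-labelled library. It rose from 96.6 CPM to 210 CPM in the seventh class and was at 166 CPM in the last in the KPC-shV-labelled library. The highest class of the first library was thus below the lowest class of the second (93.8 CPM). Crossing 3 classes of the epithelial score with 3 of the fibroblast score gave the same picture. F2r was lower in the KPC-shZEB1-labelled library in 9 of 9 combinations, at 15.8 to 57.4 CPM against 66.3 to 188 CPM, and the intervals were apart in all 9.

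**Figure D4:**
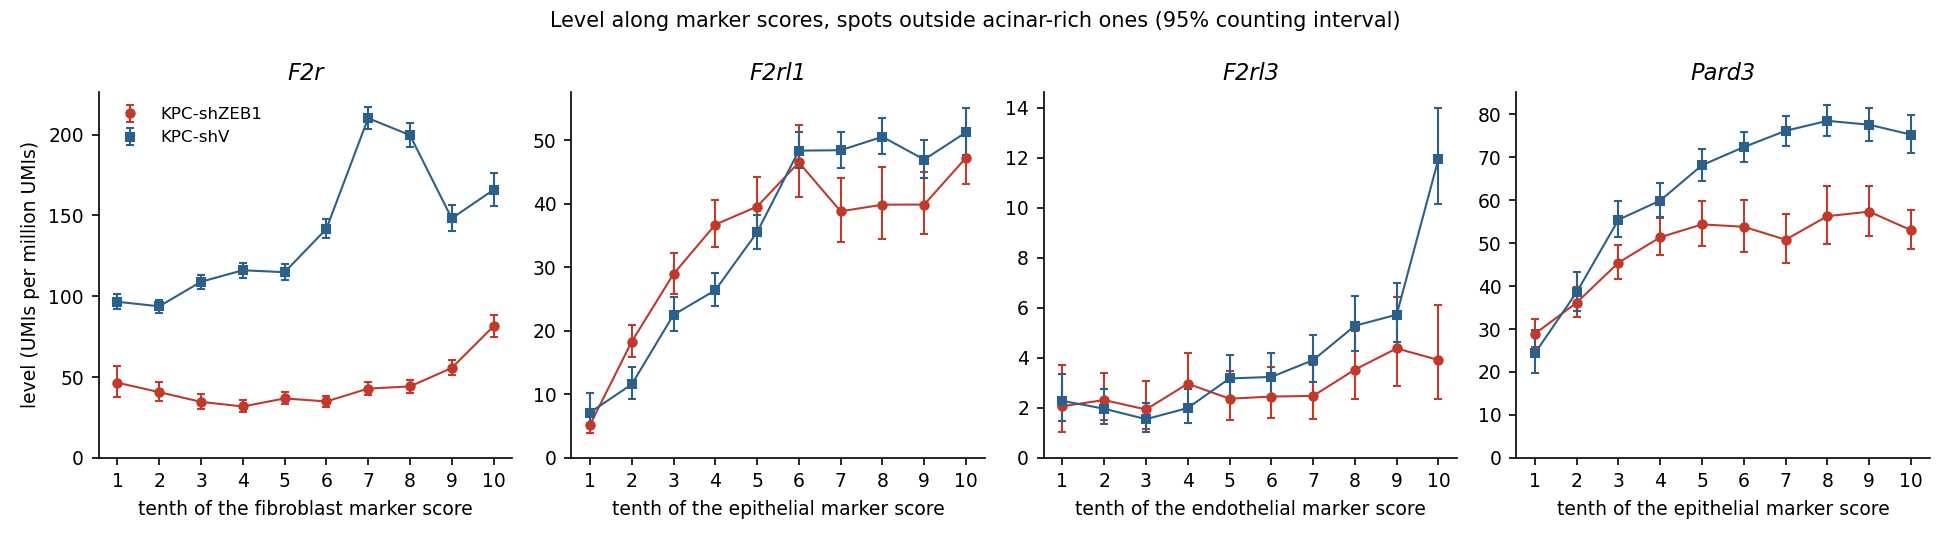
Level (y axis, CPM) of F2r, F2rl1, F2rl3 and Pard3 along 10 classes of a marker score (x axis, 1 lowest and 10 highest, same cut values in both libraries) outside acinar-rich spots, with 95% counting intervals, for the KPC-shZEB1-labelled (red) and KPC-shV-labelled (blue). F2r is set apart at every class, F2rl1 and Pard3 climb with the epithelial score in both libraries, and F2rl3 climbs to 12.0 CPM in the last endothelial class of the KPC-shV-labelled library.

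F2rl1, the trypsin receptor, was highest in epithelial-marker-rich spots among the 5 types in both libraries. It was close between the libraries in epithelial regions at full depth. It was at 47.3 CPM (43.2 to 51.6) and 51.3 CPM (47.7 to 55.1) in the epithelial-marker-rich spots, a log2 ratio of -0.12 (-0.28 to 0.05). After thinning to 5000 UMIs this ratio was -0.57 (-1.39 to 0.17). Along the epithelial score it rose from 5.18 to 47.3 CPM in the KPC-shZEB1-labelled library and from 7.14 to 51.3 CPM in the KPC-shV-labelled library. Along the fibroblast score it fell from 41.2 to 7.88 CPM and from 50.3 to 7.87 CPM. F2rl1 was lower in fibroblast-marker-rich than in the other spots by log2 ratios of -2.12 (-2.54 to -1.72) and -2.41 (-2.85 to -2.0). In macrophage-marker-rich spots it was lower by -2.47 and -1.87, and in endothelial-marker-rich spots by -2.06 and -0.98. Few genes were as much lower. In the fibroblast-marker-rich spots 1.72% and 1.42% of genes had a lower ratio. The library difference of F2rl1 varied in direction. It was lower in the KPC-shZEB1-labelled library in 5 of the 9 combinations of epithelial and fibroblast classes. Spots rich in mesenchymal markers held 22.8 CPM (KPC-shZEB1) and 15.3 CPM (KPC-shV), a log2 ratio of 0.58 (0.26 to 0.89). Between libraries F2rl1 was at 8.03 and 21.5 CPM in endothelial-marker-rich spots, a log2 ratio of -1.42 (-1.94 to -0.93). The epithelial markers were also lower in these spots in the KPC-shZEB1-labelled library, at 1482 against 4025 CPM, and their part in the result was not tested.

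F2rl3, the platelet thrombin receptor, was low throughout and was highest in endothelial-marker-rich spots of the KPC-shV-labelled library. Its level there was 12.0 CPM (10.2 to 14.0, from 157 UMIs) against 3.24 CPM in the other spots, a log2 ratio of 1.88 (1.61 to 2.15), and 1.48% of genes had a higher ratio. The same spots of the KPC-shZEB1-labelled library held 3.91 CPM (2.36 to 6.11, from 19 UMIs) against 2.66 CPM, a log2 ratio of 0.56 (-0.20 to 1.24), so that a difference was not detectable there at this depth. Between libraries, F2rl3 in endothelial-marker-rich spots differed by a log2 ratio of -1.61 (-2.38 to -0.92). The endothelial markers themselves were at 613 and 652 CPM in these spots. Platelet markers were at 15.2 and 27.6 CPM in them, and their part in the result was not tested. F2rl3 was also higher in the macrophage-marker-rich spots of the KPC-shV-labelled library, at 7.51 against 3.74 CPM, of which 28.4% were endothelial-marker-rich as well. Some other marker lists, scored the same way, gave intervals in this library that overlap the endothelial one. Mesenchymal markers gave 9.15 CPM (7.19 to 11.5) and pericyte and smooth muscle markers 8.83 CPM (7.33 to 10.5). T cell markers gave 8.13 CPM (5.09 to 12.3). Neutrophil, hypoxia, proliferation and islet markers gave 2.18 to 3.89 CPM. Platelet-marker-rich spots held 2.10 CPM (KPC-shZEB1) and 4.69 CPM (KPC-shV).

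Pard3 rose along the epithelial score, as F2rl1 did, with a smaller span. It rose from 28.9 CPM in the lowest to 53.0 CPM in the highest epithelial class in the KPC-shZEB1-labelled library and from 24.4 to 75.3 CPM in the KPC-shV-labelled library. In the lowest of 3 fibroblast classes, however, no rise over the 3 epithelial classes was seen. It was at 54.4, 56.0 and 54.3 CPM (KPC-shZEB1) and 77.7, 77.5 and 77.9 CPM (KPC-shV) there. The first of these values rests on 25 spots (43.1 to 67.8 CPM) in the KPC-shZEB1-labelled library. In the KPC-shV-labelled library it rests on 64 spots (63.8 to 93.7 CPM) with a median of only 5584.5 UMIs. Epithelial-marker-rich spots exceeded the other spots by log2 ratios of 0.20 (0.06 to 0.33) and 0.13 (0.04 to 0.22). In epithelial-marker-rich spots its levels were 53.0 CPM (48.7 to 57.7) and 75.3 CPM (70.9 to 79.9), which differ on the log2 scale by -0.51 (-0.66 to -0.36). Fibroblast-marker-rich spots held 30.8 and 26.9 CPM, a log2 ratio of 0.19 (-0.11 to 0.50), and macrophage-marker-rich spots 22.4 and 26.1 CPM, a log2 ratio of -0.22 (-0.54 to 0.09). Endothelial-marker-rich spots held 30.9 and 49.9 CPM, a log2 ratio of -0.69 (-0.96 to -0.43). As given for F2rl1, these spots had lower epithelial markers in the KPC-shZEB1-labelled library, and their part in the result was not tested. The intervals of the library difference thus left out 0 in epithelial- and endothelial-marker-rich spots and included it in the others of these 4 types. After thinning to 5000 UMIs the epithelial ratio was -0.15 (-0.72 to 0.39). Within a library, Pard3 was lower in macrophage-marker-rich than in the other spots by -1.13 (-1.39 to -0.89) and -1.45 (-1.65 to -1.26).

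F2rl2 had at most 18 UMIs in a library's epithelial- or fibroblast-marker-rich spots, and no pattern was read from it. Its level was 2.68 and 2.62 CPM in fibroblast-marker-rich spots, with overlapping intervals (1.59 to 4.23 and 1.5 to 4.26).

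In counts at the 2-fold limit, which describe these 5 genes beside all genes with at least 100 UMIs in the library, epithelial-marker-rich spots had 0 members higher in either library, where 2.54% (KPC-shZEB1) and 1.45% (KPC-shV) of genes were. Fibroblast-marker-rich spots had 1 member higher (F2r, at a log2 ratio of 1.0) and 0, where 12.2% and 21.2% of genes were. They had 1 member lower (F2rl1) and 2 lower (F2rl1 and Pard3), where 8.67% and 11.0% of genes were. Endothelial-marker-rich spots had 0 and 1 higher (F2rl3), where 13.2% and 10.5% of genes were, and 1 (F2rl1) and 0 lower, where 8.32% and 1.65% of genes were. Macrophage-marker-rich spots had 0 and 1 higher (F2rl3), where 12.7% and 17.8% of genes were. In both libraries 2 members (F2rl1 and Pard3) were lower there, where 10.4% (KPC-shZEB1) and 9.21% (KPC-shV) of genes were.

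Acinar-rich spots had lower levels of the members than the other spots, as they had of many genes. For F2rl3 in the KPC-shV-labelled library the interval included 0 (-0.61, -1.40 to 0.08). Pard3 was still at 9.59 and 22.6 CPM in acinar-rich spots. There 0 members were at least 2-fold higher, where 1.84% and 5.52% of genes were, and 5 and 4 members were lower, where 89.8% and 48.7% of genes were. Because digestive enzyme genes fill the total of these spots, the ratio was also taken with them left out of it. F2rl1 was then lower in acinar-rich than in the other spots by -3.24 (-3.59 to -2.91) and -4.30 (-5.51 to -3.32), F2r by -2.62 (-2.86 to -2.39) and -2.33 (-2.63 to -2.05) and Pard3 by -0.98 (-1.11 to -0.84) and -0.85 (-1.09 to -0.62). F2rl3 was at -0.30 (-0.77 to 0.15) and 0.16 (-0.63 to 0.85), both including 0. F2rl1 is known as a receptor of pancreatic trypsin, and acinar cells make the precursors of trypsin.

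F2rl1 was lower at higher acinar content, also below the 20% limit. With acinar genes out of the total, it was at 40.5 CPM in spots with up to 0.1% acinar UMIs and at 27.0, 17.5 and 13.9 CPM in the next 3 classes (up to 1%, 5% and 20%) in the KPC-shZEB1-labelled library. The library labelled KPC-shV had 41.8, 15.9, 8.28 and 10.1 CPM in the same classes. F2r had no such fall below the 20% limit, where its first and last class were close in the KPC-shV-labelled library and the last was highest in the other. It was at 44.3, 42.9, 45.4 and 60.4 CPM in these 4 classes of the KPC-shZEB1-labelled library and at 133, 164, 192 and 129 CPM in those of the KPC-shV-labelled library. From 40% to 60% acinar UMIs F2r was at 9.90 (7.66 to 12.6) and 12.7 (8.51 to 18.2) CPM, and the libraries no longer differed beyond counting error.

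**Figure D5:**
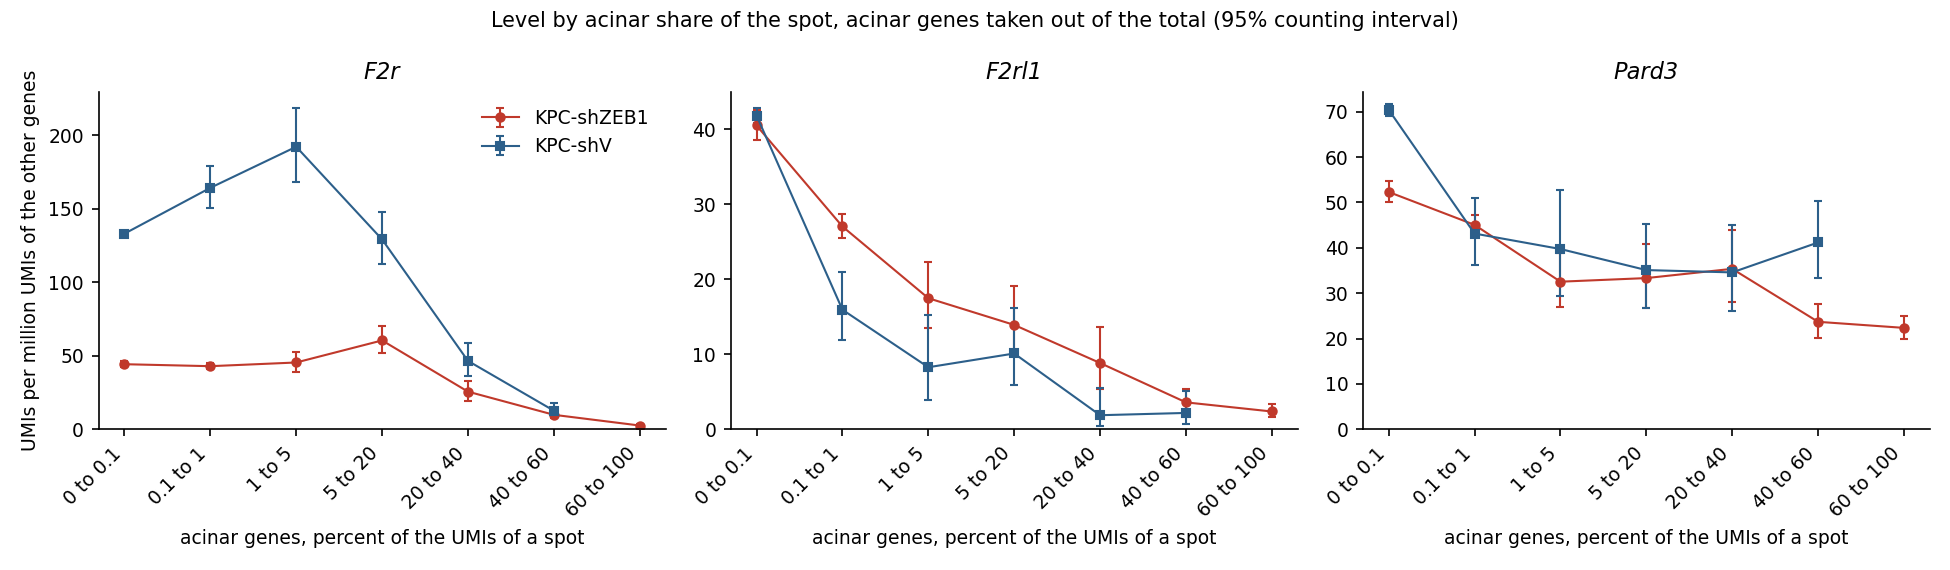
Level of F2r, F2rl1 and Pard3 (y axis, UMIs per 1000000 UMIs of genes outside the acinar list) by the percent of the UMIs of a spot that came from acinar genes (x axis, 7 classes), with 95% counting intervals, for the KPC-shZEB1-labelled (red) and KPC-shV-labelled (blue, 0 spots in the last class). F2r peaks between 1% and 20% acinar UMIs and then drops, F2rl1 drops from the first class on, and the libraries meet for F2r at 40% to 60%.

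The genes whose spot pattern was most like each member were sought among 9683 genes that reached 1000 UMIs in each library, over 1458 and 3297 spots outside acinar-rich ones, by the correlation of log2 levels, ranked by the smaller of its 2 values. F2r went with Tuba1a, Cnn2, Cnn3, Col8a1 and Bmp1, at correlations of 0.33 to 0.40, which code for a tubulin, a pair of actin-binding calponins, a collagen and a procollagen protease. F2rl1 went with Srd5a1, Plek2, Itga3, Rdh10 and Lad1, at 0.48 to 0.55, among them the laminin-binding integrin chain Itga3 and the epithelial anchoring protein gene Lad1. F2rl2 and F2rl3 had fewer UMIs than this and were left out. Pard3 went with Sdc1, Dstn, Lad1, Myc and Cttn, at 0.41 to 0.47. The genes most opposed to F2rl1 were Pltp, Selenop, Serpina3n, Itm2b and Dcn, of which Dcn is a fibroblast marker of the list used. F2rl1 and Pard3 correlated with each other at 0.28 and 0.35, and F2r with F2rl1 at -0.01 and 0.13. In sparse counts these values share the depth of the spot, which alone correlated with F2rl1 at 0.34 and 0.47, with Pard3 at 0.32 and 0.49 and with F2r at 0.11 and 0.40.

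Granzyme A was read in few spots, and the members were compared between spots with and without it. Gzma was found in 5.09% (4.02% to 6.35%) and 3.23% (2.64% to 3.92%) of the spots outside acinar-rich ones after thinning to 5000 UMIs (30.8% and 17.2% unthinned). Among spots of at least 20000 UMIs, 208 and 255 held a Gzma UMI after thinning to 20000 UMIs. F2r was at 54.3 CPM in these against 42.1 CPM in the others in the KPC-shZEB1-labelled library, a log2 ratio of 0.37 (0.24 to 0.49). It was at 117 against 136 CPM in the KPC-shV-labelled library, a log2 ratio of -0.22 (-0.29 to -0.15). F2rl1 was at -0.13 (-0.29 to 0.03) and 0.01 (-0.11 to 0.13), both including 0, and Pard3 was slightly lower with Gzma in both, at -0.15 (-0.29 to -0.02) and -0.18 (-0.27 to -0.08). Of the Gzma spots, 79.8% and 94.5% held an F2r UMI, and of the others 77.7% and 97.2%.

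The proteases that can cut these receptors moved in both directions between the libraries outside acinar-rich spots. The list of activating proteases had 21 measured genes, among them tissue factor (F3), which is not itself a protease. Of these, 2 were at least 2-fold lower in the KPC-shZEB1-labelled library and 5 were higher, where 2.00% of all genes were lower and 4.83% higher. Their median log2 ratio was 0.08 (all genes -0.02). The lower ones were Plau, the urokinase gene, at 72.3 against 164 CPM (-1.18), and Prss8, the membrane protease prostasin, at 9.68 against 22.6 CPM (-1.23). The higher ones were Prss2 (1.81) and Prss3 (2.31), which code for trypsinogens and are in the acinar list, Klk1 (1.63), a pancreatic kallikrein, Tpsb2 (1.77), a mast cell tryptase at 5.91 against 1.73 CPM, and Tmprss2 (1.05), a membrane serine protease. The acinar list as a whole was higher by 1.76 even outside acinar-rich spots, and its part in the result was not tested. Tissue factor (F3), which starts the thrombin cascade, was at 199 and 223 CPM (-0.17), and thrombin itself (F2) was at 0.668 and 0.858 CPM, too few UMIs to be counted as measured. Gzma was at 10.5 and 7.19 CPM (0.55, 0.42 to 0.67). T cell markers were at 97.9 and 19.9 CPM (2.30) in the same spots, and their part in the result was not tested.

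The 11 measured inhibitors and cofactors had a median of -0.03. Of these, 1 was at least 2-fold lower and 0 were higher, beside 2.00% lower and 4.83% higher of all genes. Procr, the receptor that lets protein C act through F2r, was at 23.4 and 42.9 CPM (-0.88), and the protease nexin Serpine2 at 118 and 75.9 CPM (0.64). The 21 G protein and arrestin genes had a median of 0.02. At the 2-fold limit 0 were lower and 1 was higher (Gnai1, 12.2 against 5.63 CPM), beside 2.00% lower and 4.83% higher of all genes. Over all spots Gnai1 was at 27.6 and 7.71 CPM. The acinar list was higher by 1.76 outside acinar-rich spots, and its part in the Gnai1 result was not tested.

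Of 12 measured genes that thrombin is known to induce, 4 were at least 2-fold lower in the KPC-shZEB1-labelled library and 0 were higher, with a median of -0.58, beside 2.00% lower and 4.83% higher of all genes. Among the lower ones were Ptgs2 (22.2 and 87.2 CPM, -1.97), the prostaglandin synthase, Cxcl1 (34.3 and 98.1 CPM, -1.51), a neutrophil chemokine, and Hbegf (50.1 and 133 CPM, -1.41), a growth factor of the EGF family. Vcam1 (0.84) and Icam1 (0.71), adhesion molecules of endothelium, were on the other side. Hypoxia markers (-1.35) and neutrophil markers (-1.23) were lower in the same library, and their part in the result was not tested.

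Among 20 measured polarity partners of Pard3, 1 was at least 2-fold lower (Jam2, a junctional adhesion molecule, 13.8 and 36.2 CPM, -1.39) and 0 were higher, with a median of -0.16, beside 2.00% lower and 4.83% higher of all genes. The Pard6 genes, whose proteins bind Pard3 in the polarity complex, differed in both directions, with Pard6b at 29.8 and 51.4 CPM (-0.79), Pard6a at 10.7 and 13.04 CPM (-0.29) and Pard6g at 8.60 and 5.09 CPM (0.76). Of the others, the atypical kinases Prkci (-0.08) and Prkcz (-0.09) were nearly level, and the paralog Pard3b was at 4.58 and 2.39 CPM (0.94). The genes next to F2r on chromosome 13 differed less. The 6 measured genes of this locus include F2r itself and the members F2rl1 (-0.34) and F2rl2 (0.33). F2r alone was past 2-fold, beside 2.00% lower and 4.83% higher of all genes. Iqgap2 was at 0.13, Aggf1 at -0.11 and Zbed3 at 0.04.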

How the data were processed

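From methanol-fixed frozen sections the authors made Visium CytAssist probe libraries. Space Ranger 2.0.1 and mm10 are named in the submitters' processing notes. The deposited values are UMI counts of each gene in the spots over tissue, not normalized. Neither images nor positions of spots entered the analysis. The features of both files are the same, and each member has 1 row. Groups came from the sample titles.

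Levels in CPM (scale 1000000), log2 ratios and shares were computed from the deposited counts with Python 3.11.15, numpy 2.4.6, scipy 1.17.1, pandas 2.3.3 and matplotlib 3.10.9, with 95% exact Poisson, conditional binomial and binomial (Clopper-Pearson) intervals, after a check on simulated data. UMIs collapse duplicate reads, and the intervals cover counting error only. Each marker list scored a spot by its mean CPM relative to the mean over spots outside acinar-rich ones, each gene weighted equally, and the limit for the top 10% was set over both libraries together. The listed genes Prss1, Mmp1a and Cdc42 were not analysed here. Some listed genes are not reported here. Correlations used log2(CPM + 10). Thinning drew UMIs without replacement (seed 1) and left out shallower spots (4 and 185 at 5000 UMIs). Gene comparisons took genes with at least 100 UMIs. The named genes are the members, the genes of fixed pathway lists and the 5 most like each member with at least 1000 UMIs. The members and lists were chosen with earlier results of these data known. Alternatives were other limits for spot types, other totals, depth filters and thinning. Doublets were not called and cell type makeup was not estimated, since spots hold several cells.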

Additional observations from a re-analysis of the deposited data

Results flagged for a closer look

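F2r was related to lymphocyte signal in opposite directions in the 2 libraries, and the difference between the libraries was not tested. In T cell-marker-rich spots against the other spots its log2 ratio was 0.16 (0.05 to 0.26; 363 spots, 47.7 against 42.8 CPM) in the KPC-shZEB1-labelled library and -0.24 (-0.40 to -0.07; 113 spots, 114 against 134 CPM) in the KPC-shV-labelled library. In spots with a Gzma UMI against spots without, it was 0.37 and -0.22, respectively, and both intervals left out 0 in each case. Fibroblast markers were higher in the T cell-marker-rich spots of both libraries, 1.63-fold and 3.59-fold, and their part in the result was not tested. The T cell-marker-rich spots were shallow in the KPC-shV-labelled library, with a median of 17231 UMIs against 54896 in all spots outside acinar-rich ones. In the KPC-shZEB1-labelled library these medians were 55801 and 58340. Spots with and without Gzma were closer in depth, at 55565 and 59724 (KPC-shZEB1) and 62558 and 61557.5 (KPC-shV). The part of depth was not tested.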

How the results depend on the processing

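No paired analysis was possible because each condition has 1 library. The log2 ratio KPC-shZEB1 over KPC-shV over all spots depended on the acinar share. For F2r (-2.22) it was -1.61 without spots over 20% acinar UMIs, -1.62 without those over 5%, -1.84 with acinar genes out of the total, -1.73 with median-of-ratios scaling, -2.01 as the mean CPM of spots, -2.28 without the 5% of spots highest in the gene and -1.94 after thinning to 5000 UMIs. In the same order F2rl1 (-0.97) was at -0.34, -0.32, -0.60, -0.49, -0.73, -1.10 and -0.64, and Pard3 (-1.06) at -0.55, -0.54, -0.69, -0.58, -0.89, -1.17 and -0.94. For the first 4 settings and the one without the highest spots, F2rl3 (-0.95) was at -0.53, -0.53, -0.58, -0.47 and -1.18, and F2rl2 (-0.20) at 0.33, 0.31, 0.17, 0.28 and 0.36, on the other side of 0. Unthinned, only 11.2% (F2rl3) and 7.30% (F2rl2) of KPC-shZEB1 spots held a UMI. Leaving out the highest 5% thus took away a large part of these spots, and its values rest on the few UMIs left.

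The count of members at least 2-fold higher in fibroblast-marker-rich spots went from 1 to 0 in the KPC-shZEB1-labelled library (F2r lies at the limit) with the top 20% of spots, with each spot in 1 type, with spots of at least 20000 UMIs and after thinning, and from 0 to 1 in the KPC-shV-labelled library with the top 5%, the top 20% and summed CPM. It went from 0 to 1 in endothelial-marker-rich spots (KPC-shZEB1, top 5%) and from 1 to 0 in macrophage-marker-rich spots (KPC-shV) with limits set per library, summed CPM and thinning. The causes were not tested. Within spot types, 140 ratios between libraries stayed within their interval and 17 moved, and of the ratios to the other spots 254 stayed and 73 moved. For members with few UMIs the intervals are wide, and a ratio that changed sign could count as stayed. F2rl1 in acinar-rich spots was at 0.16 (-0.89 to 1.43) and at -0.60 with the limit at 5% acinar UMIs. F2r stayed lower in the KPC-shZEB1-labelled library in all 4 types, at -1.28 to -0.79 in fibroblast- and -1.21 to -0.88 in epithelial-marker-rich spots. With 1 library per condition, a difference between tumors, sections or slides and one between conditions cannot be told apart, and F2rl2 and F2rl3 are limited by depth.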
